A study of Rattus norvegicus with 2 samples.

Results

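The 8 genes described here encode the sterol-sensing machinery that processes the SREBP transcription factors, together with a ubiquitin ligase that controls the LDL receptor. They were chosen by gene symbol (Srebf1, Srebf2, Scap, Insig1, Insig2, Mbtps1, Mbtps2 and Mylip), and all 8 were found among the 17049 genes of the expression table. Their gene numbers are 78968, 300095, 301024, 64194, 288985, 89842, 302705 and 306825, in that order. The tables hold 2 RNA-seq libraries of primary oligodendrocyte precursor cells (OPCs), the glial progenitors from which oligodendrocytes form, from the brains of wild-type adult rats. In the Aβ group the cells received amyloid-β (Aβ), the peptide that forms Alzheimer plaques, at 1 µM for 2 days. The other group received DMSO, a solvent, per its treatment label, although the protocol text of both samples describes Aβ exposure. Both groups were grown in OGM medium. With 1 library per group, no difference below has a replicate check. The ratios compare these libraries and not the conditions, and no p-value of a member is given.

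SREBPs are made as membrane proteins of the endoplasmic reticulum. When sterols are scarce, the escort protein Scap carries them in COPII vesicles to the Golgi, where the site-1 and site-2 proteases (Mbtps1 and Mbtps2) release a fragment that enters the nucleus and activates genes. When sterols are plentiful, Insig proteins hold Scap and its cargo back in the endoplasmic reticulum. SREBP-2 (from Srebf2) mainly drives cholesterol synthesis and SREBP-1 (from Srebf1) mainly fatty acid synthesis. Insig1 is itself a target of the SREBPs, and Srebf1 and Mylip are targets of the oxysterol receptor LXR. Oligodendrocytes make much cholesterol for myelin. These libraries measure transcripts, whereas cleavage of the SREBPs is a step on proteins and was not measured.

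The libraries held 15704932 estimated reads (Aβ) and 15663751 (DMSO), of which the 8 genes took 0.124% and 0.117%. The 7 OPC markers summed to 2653 TPM with Aβ and 2867 TPM with DMSO. Of the 6 at 1 TPM or more in at least 1 library, 1 was higher and 5 lower with Aβ, and the interval of the read ratio (defined below) was above 1 for 1 and below 1 for 4. Olig1, Olig2, Pdgfra and Ptprz1 were expressed in both libraries with ratios of 0.890 to 0.952. The proteoglycan gene Cspg4 was at 6.65 TPM with Aβ and 3.70 TPM with DMSO (1.78, 1.54 to 2.05). Sox10 was at 0.84 TPM with Aβ and 1.22 TPM with DMSO, and Gpr17 at 0.13 TPM in both. TPM is a level corrected for transcript length and library total. Olig1 (1421 TPM with Aβ and 1557 TPM with DMSO) and Ptprz1 (866 and 905 TPM) made up most of the OPC sum, while Pdgfra was at 23.2 and 24.6 TPM. Markers of other cells were present too, and none of the marker genes found in the table was at 0. Among astrocyte markers Slc1a3 was at 1013 TPM with Aβ and 987 TPM with DMSO, and Gfap at 328 and 368 TPM. The levels below are those of whole cultures and were not divided between cell types. The 7 astrocyte markers summed to 2122 TPM with Aβ and 2161 TPM with DMSO (2 higher and 5 lower with Aβ), and the 13 microglia markers to 352 and 401 TPM (5 higher and 7 lower of 12 at 1 TPM or more). The read interval was above 1 for 2 astrocyte markers and below 1 for 4. For the microglia markers it was above 1 for 1 and below 1 for 4, with C1qa lowest of these 4 (0.672, 0.589 to 0.765). Oligodendrocyte markers (6 genes) summed to 208 TPM with Aβ and 219 TPM with DMSO, neuron markers (5 genes) to 127 TPM with Aβ and 124 TPM with DMSO. Fibroblast markers (4 genes) summed to 2.86 TPM with Aβ and 5.99 TPM with DMSO, endothelial markers (3 genes) to 4.25 TPM with Aβ and 4.18 TPM with DMSO. The fibroblast genes Col1a1 (0.425, 0.258 to 0.683) and Col1a2 (0.365, 0.257 to 0.509) were low in level and had intervals below 1. The part of these marker differences in the values below was not tested. In bulk RNA, fewer cells of a type and less RNA per cell cannot be told apart.

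Of the 8 genes, Insig1 was higher and Srebf1 lower in the Aβ library, and the other 6 had read ratios between 0.682 (Mylip) and 1.11 (Mbtps2). Insig1 was 1.30-fold higher by reads and Srebf1 was at 0.766 of its DMSO level, while the ratios of Srebf2, Scap and Mbtps1 lay between 1.02 and 1.04. A read ratio here is Aβ over DMSO in reads per total reads, with an exact 95% interval that covers counting error only. It holds no variation between cultures. Reads counted without molecular identifiers are not separate molecules, so the interval can be too narrow even for counting error. The interval lay above 1 for 3 of the 8 (Insig1, Mbtps2 and Srebf2) and below 1 for 1 (Srebf1); with 99% intervals it lay above 1 for Insig1 alone and below 1 for Srebf1. Among all 17004 genes with a read in either library it lay above 1 for 9.46% and below 1 for 10%, and among the 10586 genes with 200 or more reads over both libraries for 13.1% and 13.7%. None of the 8 reached the rule of size, a 2-fold difference on the scale of log2((Aβ TPM + 1)/(DMSO TPM + 1)), which 0.994% of the 12980 genes reaching 1 TPM in at least 1 library did. The median of the 8 log2 ratios was 0.03, beside 0.01 over those 12980 genes.

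**Figure D1:**
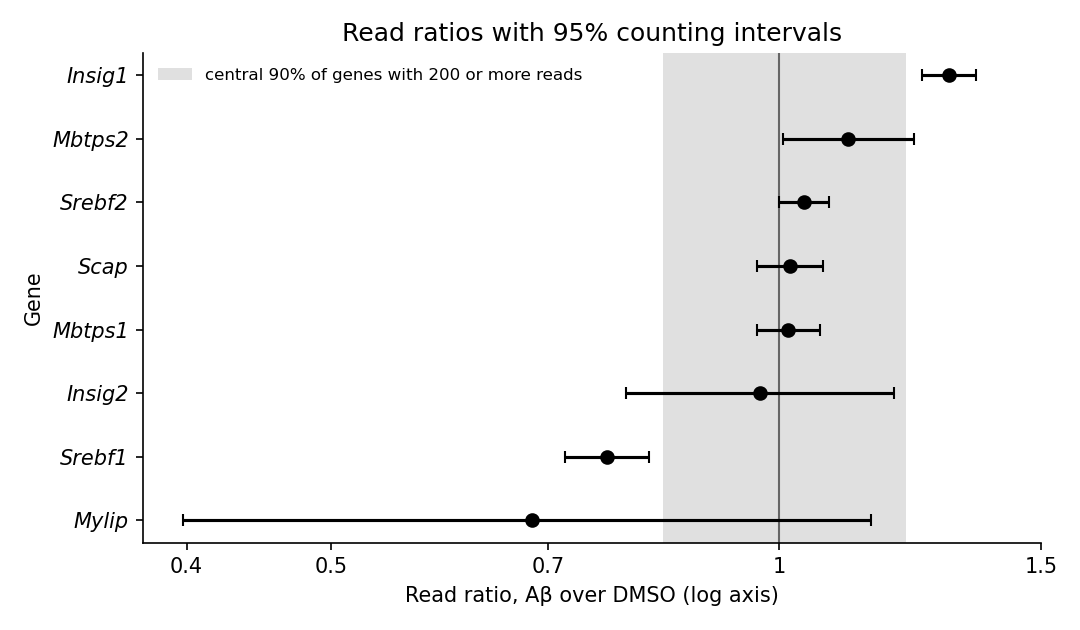
Read ratio of each of the 8 genes, Aβ over DMSO, on a log axis, with bars for the exact 95% counting interval; the grey band holds the central 90% of genes with 200 or more reads over both libraries (0.836 to 1.22). Insig1 (1.30) and Srebf1 (0.766) lie outside the band with intervals clear of 1, and Mylip has the widest interval (0.398 to 1.15).

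The promoter windows of Insig1, Srebf2 and Srebf1 are shown because Insig1 and Srebf1 carried the largest well-counted differences and Srebf2 encodes the factor of the cholesterol branch. Each window is the 250 bases before a RefSeq transcription start in rat build GRCr8, read 5′ to 3′ on the gene's strand. Capitals mark the core of a sterol regulatory element (TCACNCCA), an E-box (TCACGTG) and CCAAT boxes (CCAAT, or ATTGG on the other strand), each searched on both strands; the printed matches do not overlap. Insig1 is at chr4:8057770-8058019 on the minus strand, Srebf2 at chr7:115543057-115543306 on the plus strand, and Srebf1 has 2 starts, upstream at chr10:45529165-45529414 on the minus strand and downstream at chr10:45519011-45519260 on the minus strand.
Insig1: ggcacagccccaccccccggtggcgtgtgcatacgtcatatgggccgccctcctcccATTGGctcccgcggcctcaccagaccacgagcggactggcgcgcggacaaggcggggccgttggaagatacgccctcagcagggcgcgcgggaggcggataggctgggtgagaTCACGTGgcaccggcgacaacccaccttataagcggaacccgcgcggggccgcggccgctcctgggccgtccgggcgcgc
Srebf2: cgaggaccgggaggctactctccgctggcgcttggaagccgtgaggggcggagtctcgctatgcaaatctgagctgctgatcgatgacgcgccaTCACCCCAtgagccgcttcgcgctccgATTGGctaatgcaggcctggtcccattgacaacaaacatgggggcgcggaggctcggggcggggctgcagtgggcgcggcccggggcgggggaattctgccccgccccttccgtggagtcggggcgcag
Srebf1 upstream start: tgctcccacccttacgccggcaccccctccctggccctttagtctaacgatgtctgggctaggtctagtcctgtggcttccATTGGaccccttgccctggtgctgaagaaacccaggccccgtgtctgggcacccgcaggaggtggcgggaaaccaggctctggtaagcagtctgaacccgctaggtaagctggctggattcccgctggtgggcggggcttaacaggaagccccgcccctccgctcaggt
Srebf1 downstream start: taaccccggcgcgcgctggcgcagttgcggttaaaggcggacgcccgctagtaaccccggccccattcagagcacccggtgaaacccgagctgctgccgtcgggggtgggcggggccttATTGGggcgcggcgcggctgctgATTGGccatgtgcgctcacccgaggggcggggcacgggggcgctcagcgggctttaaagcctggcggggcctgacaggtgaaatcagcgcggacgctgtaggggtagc

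In these letters Srebf2 carried the sterol element core at -156 to -149 before its start, followed by a CCAAT box at -129 to -125. The core was found in 1 of the 8 genes, and in 3.56% of the 27457 genes with a RefSeq window of this length. Among the 15 genes of cholesterol synthesis with a window, 1 carried the core. The search took this exact pattern only, so a window without a match does not show that a gene lacks a sterol element. Insig1 carried the E-box at -80 to -74 and a CCAAT box at -193 to -189. The E-box was likewise found in 1 of the 8 genes, in 1 of the 15 genes of cholesterol synthesis and in 3.13% of all genes with a window. CCAAT boxes, bound by the factor NF-Y, stood in windows of 5 of the 8 genes (Srebf1, Srebf2, Insig1, Insig2 and Mylip) and in 36.1% of all genes with a window. The downstream Srebf1 start had a pair of them, at -131 to -127 and -108 to -104, and the upstream start had 1, at -169 to -165. GC boxes (GGGCGG, the letters bound by Sp1) stood in 6 of the 8 genes, all but Insig2 and Mbtps2, and in 33.5% of all genes with a window. The members' 9 windows ranged from 40% G and C (Insig2) to 72.8% (Insig1), beside a median of 51.2% over all windows. A match describes letters only, and binding was not measured.

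The transcription factors themselves went apart. Srebf2 had 5316 reads with Aβ and 5097 with DMSO, or 107.6 and 102.6 TPM, a read ratio of 1.04 (1.00 to 1.08). Its lower bound was barely above 1 and fell to the other side (0.999) when the libraries were scaled by the median gene ratio instead of by total reads, as it did (1.00, just below) without the 10 most abundant genes. Srebf1 had 1630.35 estimated reads with Aβ and 2121.41 with DMSO, or 40.8 and 52.6 TPM, a read ratio of 0.766 (0.718 to 0.818) and a log2 TPM ratio of -0.36. Of 1085 other genes whose reads over both libraries were between 0.8 and 1.25 times those of Srebf1, 0.184% had a lower ratio. Srebf2 stood at 2.64 times the TPM of Srebf1 with Aβ and 1.95 times with DMSO. The corresponding odds ratio of reads, which does not depend on how the libraries are scaled, was 1.36 (1.26 to 1.46). Srebf2 thus made up 72.5% of the summed TPM of the pair with Aβ and 66.1% with DMSO, while that sum was 148 and 155 TPM.

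Srebf1 was the only one of the 8 with estimated reads that were not whole (to within 0.005). Its fractions were complementary to those of Rai1, the neighbouring gene in GRCr8, so that the counts of the pair sum to whole numbers in both libraries. Rai1 had 666.65 reads with Aβ and 734.59 with DMSO, a ratio of 0.905 (0.814 to 1.01). Summed, the pair had 2297 and 2856 reads and a ratio of 0.802 (0.759 to 0.848), the same direction as for Srebf1 alone. How the reads should be divided between the pair was not tested. Tom1l2, the neighbour on the other side, had whole reads and a ratio of 0.933 (0.870 to 1.00). In mammals the upstream start of Srebf1 gives SREBP-1a and the downstream start SREBP-1c, and the gene-level counts do not separate them.

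The escort gene Scap was close to equal. It had 3076 reads with Aβ and 3015 with DMSO, or 76.4 and 74.5 TPM, a ratio of 1.02 (0.967 to 1.07). Relative to Scap, Srebf2 stood at 1.41 with Aβ and 1.38 with DMSO by TPM, with an odds ratio of reads of 1.02 (0.959 to 1.09).

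The retention genes differed both in level and in ratio. Insig1, the most abundant of the 8, had 5283 reads with Aβ and 4050 with DMSO, or 239 and 183 TPM, a read ratio of 1.30 (1.25 to 1.36) and a log2 TPM ratio of 0.39. Of 406 other genes of similar read number, 0.985% had a higher ratio. Insig2, which encodes the second retention protein, had 187 and 192 reads, or 9.12 and 10.4 TPM, and a read ratio of 0.971 (0.790 to 1.19). At this depth a difference within that interval was not detectable for Insig2. Insig1 was at 26.2 times the TPM of Insig2 with Aβ and at 17.6 times with DMSO, and the odds ratio of reads was 1.34 (1.08 to 1.65). The summed Insig transcripts stood at 3.25 per Scap transcript with Aβ and 2.59 with DMSO in TPM. The odds ratio of reads was 1.70 (1.57 to 1.83) for Insig1 over Srebf1 and 1.25 (1.18 to 1.32) for Insig1 over Srebf2.

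**Figure D2:**
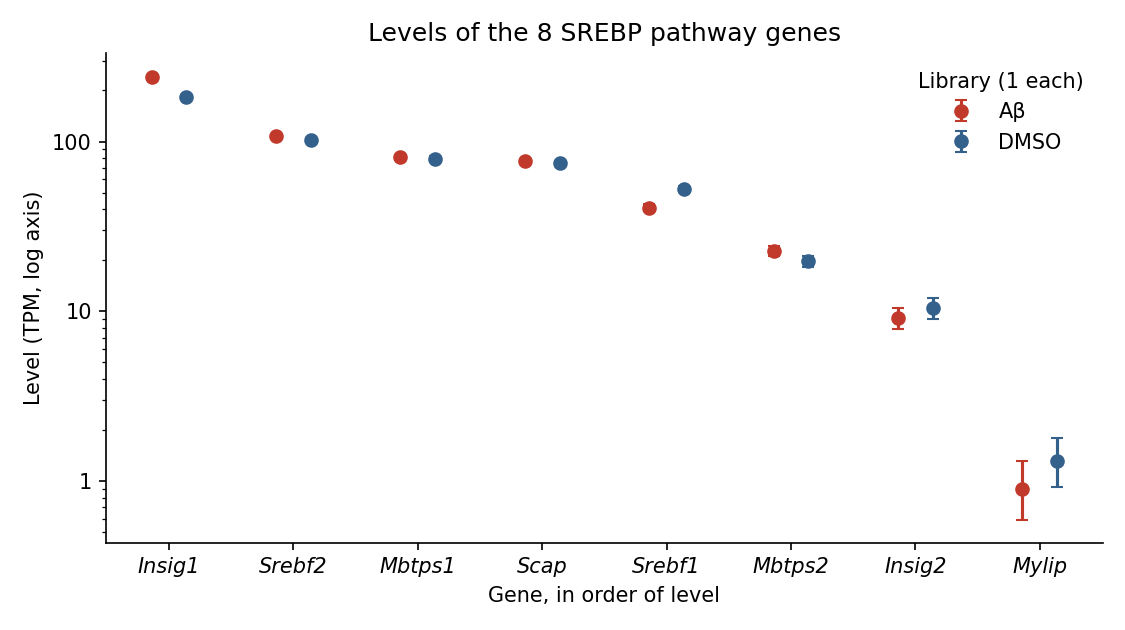
Level of each gene in TPM on a log axis, with the Aβ library left of the DMSO library and bars for exact 95% Poisson counting intervals, which are mostly smaller than the points. The order of the genes is the same in both libraries, from Insig1 (239 and 183 TPM) down to Mylip (0.90 and 1.31 TPM).

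Both Golgi protease genes were expressed, Mbtps1 at the higher level. Mbtps1, which makes the first cut, had 3222 reads with Aβ and 3166 with DMSO, or 80.9 and 79.1 TPM, a read ratio of 1.02 (0.966 to 1.07). Mbtps2, the metalloprotease that makes the second cut within the membrane, had 805 and 721 reads, or 22.8 and 19.7 TPM, a read ratio of 1.11 (1.01 to 1.23). Of 1679 other genes of similar read number, 11.1% had a higher ratio than Mbtps2. The odds ratio of Mbtps1 over Mbtps2 was 0.912 (0.814 to 1.02), an interval that included 1.

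Mylip, also known as Idol, encodes the ligase that marks the LDL receptor for degradation. It was the scarcest of the 8, with 26 reads with Aβ and 38 with DMSO, or 0.90 and 1.31 TPM, so that 7 of the 8 genes reached 1 TPM with Aβ and all 8 with DMSO. Its read ratio of 0.682 (0.398 to 1.15) was the lowest of the 8, but the counting interval included 1, and 12.6% of 554 other genes of similar read number had a lower ratio.

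**Figure D3:**
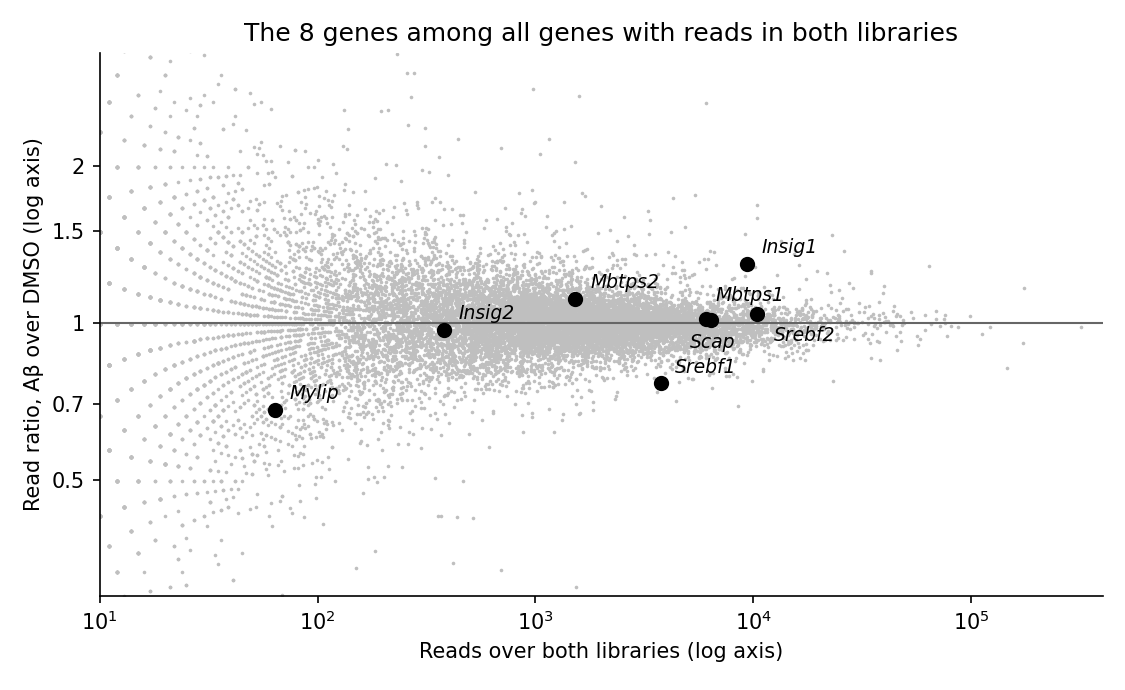
Read ratio, Aβ over DMSO, against the reads of both libraries together, both on log axes, for all genes with reads in both libraries (grey; genes beyond the axes are not drawn) and the 8 genes (black). Insig1 (1.30) and Srebf1 (0.766) stand at the edges of the spread of genes with similar read numbers, and Mylip (0.682) lies within the wide spread of genes with few reads.

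The order of levels was the same in both libraries: Insig1, Srebf2, Mbtps1, Scap, Srebf1, Mbtps2, Insig2 and Mylip. Neighbours in this order were separated beyond their counting intervals except Mbtps1 and Scap. Mbtps1 lay at 78.1 to 83.8 TPM and Scap at 73.7 to 79.1 TPM with Aβ, and at 76.4 to 81.9 and 71.8 to 77.2 TPM with DMSO. Insig1 stood above 95.1% of genes at 1 TPM or more with Aβ and 93.4% with DMSO, and Insig2 above 28.3% and 31.2%.

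For Insig2 and Mbtps2 the TPM quotient and the read ratio came apart. Insig2 was at 0.877 by TPM (no pseudocount) and 0.971 by reads, and Mbtps2 at 1.16 and 1.11. The transcript length implied by the deposited read counts and FPKM was 1962 bases for Insig2 with Aβ and 1749 with DMSO, a quotient of 1.12 that exceeded those of 99.4% of the 10586 genes with 200 or more reads. For Mbtps2 it was 3379 and 3463 bases, a quotient of 0.976, which exceeded those of 3.53% of these genes. The other 6 genes had quotients of 1.00 to 1.01, beside a median of 1.01 over the 10586 genes. The lengths are those behind the authors' own FPKM, and why they differ between the libraries was not tested.

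**Figure D4:**
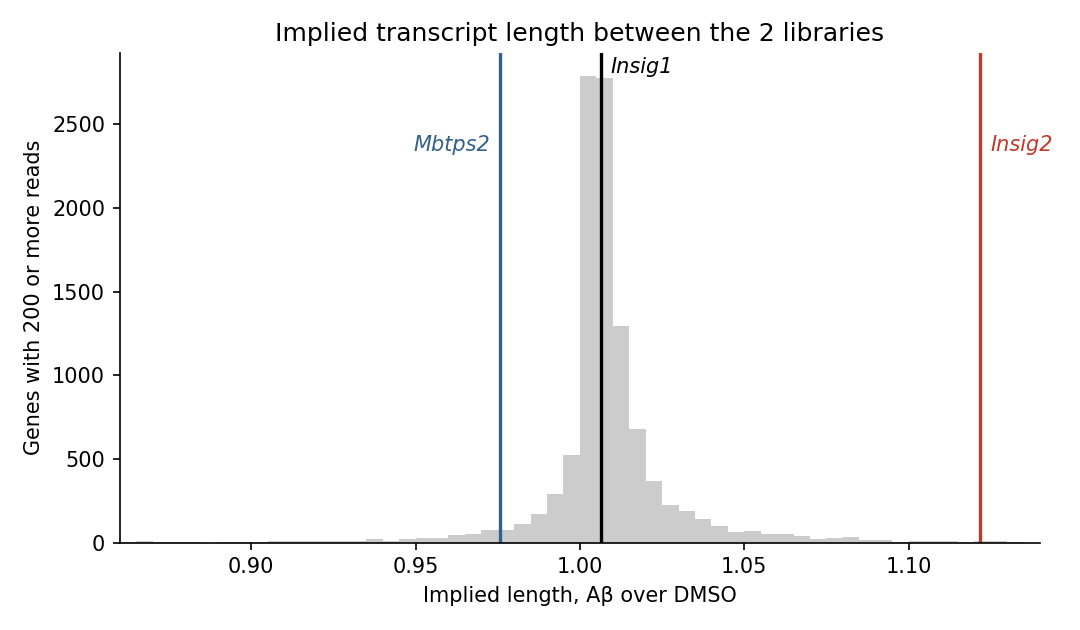
Histogram of the implied transcript length with Aβ over that with DMSO for genes with 200 or more reads over both libraries (genes outside the axis are not drawn), with lines for 3 of the 8 genes. Insig1 (1.01) lies at the bulk of genes, Mbtps2 (0.976) to its left and Insig2 (1.12) in the far right tail.

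The enzymes of cholesterol synthesis, the program driven by SREBP-2, were higher as a list while Srebf2 was nearly equal. All 20 enzymes listed were higher with Aβ, and their median log2 TPM ratio was 0.35. The read interval was above 1 for 19 of them and below 1 for 0. Over the 12980 genes at 1 TPM or more, 51.7% were higher and 47.9% lower, and the interval was above 1 for 12% and below 1 for 12.5%. The read ratios of the 20 ran from 1.05 to 1.49, and Insig1, at 1.30, had 7 of them above it and 13 below, while Srebf2 lay below all 20. Idi1, Lss and Msmo1, an isomerase, a cyclase and an oxidase of the pathway, were among the largest.

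Genes of fatty acid synthesis, the program of SREBP-1, went both ways while Srebf1 was lower. Of the 15 that reached 1 TPM in at least 1 library, 11 had a higher level and 4 a lower one, and their median log2 TPM ratio was 0.03. By CPM (reads scaled to the library total, without the length) 7 were lower. The interval was above 1 for 6 and below 1 for 3. Acss2, which makes acetyl-CoA from acetate, was at 109 TPM with Aβ and 71.0 TPM with DMSO (read ratio 1.53, 1.45 to 1.62). Pnpla3, a lipid droplet hydrolase, was at 3.87 and 2.48 TPM (1.57, 1.15 to 2.15). Gpam, which starts glycerolipid synthesis, was at 84.1 and 103 TPM (0.809, 0.779 to 0.840). The desaturase gene Scd, with reads that were not whole, was at 1.24 (1.19 to 1.28). Besides Gpam, the interval lay below 1 for the desaturases Scd2, also with divided reads, and Fads1 (0.915 and 0.908), which were named after their values were seen. Srebf1 had a lower ratio than all 15. Acacb, below 1 TPM with 7 reads with Aβ and 13 with DMSO, was lower than Srebf1 at 0.537 (0.181 to 1.45).

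Genes that control the turnover of Insig, Scap and related sterol-regulated proteins had a median log2 TPM ratio of 0.02, with 9 of 16 measured higher and 7 lower. The interval was above 1 for 1, the ubiquitin-conjugating enzyme Ube2g2 (53.8 TPM with Aβ and 43.6 TPM with DMSO, read ratio 1.23, 1.11 to 1.36). It lay below 1 for 1, the extraction ATPase Vcp (465 and 494 TPM, 0.934, 0.912 to 0.955). Paqr3, a Golgi anchor of Scap with reads that were not whole, was at 1.06 (0.879 to 1.28), and Tmub1 at 0.852 (0.687 to 1.05).

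Of LXR and its targets outside the 8 genes, 10 reached 1 TPM, 7 of them higher and 3 lower. Their median log2 TPM ratio was 0.04, and the interval was above 1 for 1 and below 1 for 2. With no filter on low levels, 6 of the LXR genes were lower. The receptor genes Nr1h2 and Nr1h3 were at 1.12 (1.00 to 1.24) and 1.21 (0.882 to 1.67). The cholesterol exporter Abca1, which like Srebf1 and Mylip is a target of LXR, was at 0.852 (0.752 to 0.965), and the lipid droplet protein Plin2 at 0.871 (0.797 to 0.953). Other targets at 1 TPM or more, named after their values were seen, were nearly equal. Apoe was at 1.03 (0.999 to 1.06), Abcg4 at 1.04 (0.901 to 1.21) and Smpdl3a at 0.986 (0.904 to 1.08). Lpcat3, with reads that were not whole, was at 1.03 (0.931 to 1.13). The 7 higher genes included the receptor genes Rxra and Rxrb. Srebf1 and Mylip each had a lower read ratio than all 10, but the interval of Mylip was wide (0.398 to 1.15). Among the LXR genes below 1 TPM, the exporter gene Abcg1 was lower than both, at 0.514 (0.268 to 0.949). It had 17 reads with Aβ and 33 with DMSO. Abcg5 and Abcg8, with at most 4 reads in a library, were lower than both too.

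Genes of the LDL receptor family and lipoprotein uptake, on part of which Mylip acts, had a median log2 TPM ratio of 0.01. Of the 13 at 1 TPM or more, 7 had a higher level and 6 a lower one, and the interval was above 1 for 5 and below 1 for 0. By CPM, 8 were higher and 5 lower. The Mylip substrate Vldlr was at 7.28 TPM with Aβ and 6.12 TPM with DMSO (read ratio 1.16, 1.00 to 1.35). Lrp8, of the same family and named after its value was seen, was at 1.03 (0.980 to 1.09). Mylip acts on receptor protein, which was not measured. Scarb1, a receptor for high-density lipoprotein, was at 64.7 and 55.1 TPM (1.17, 1.08 to 1.26), and Lrp10 at 95.8 and 88.6 TPM (1.07, 1.01 to 1.13).

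**Figure D5:**
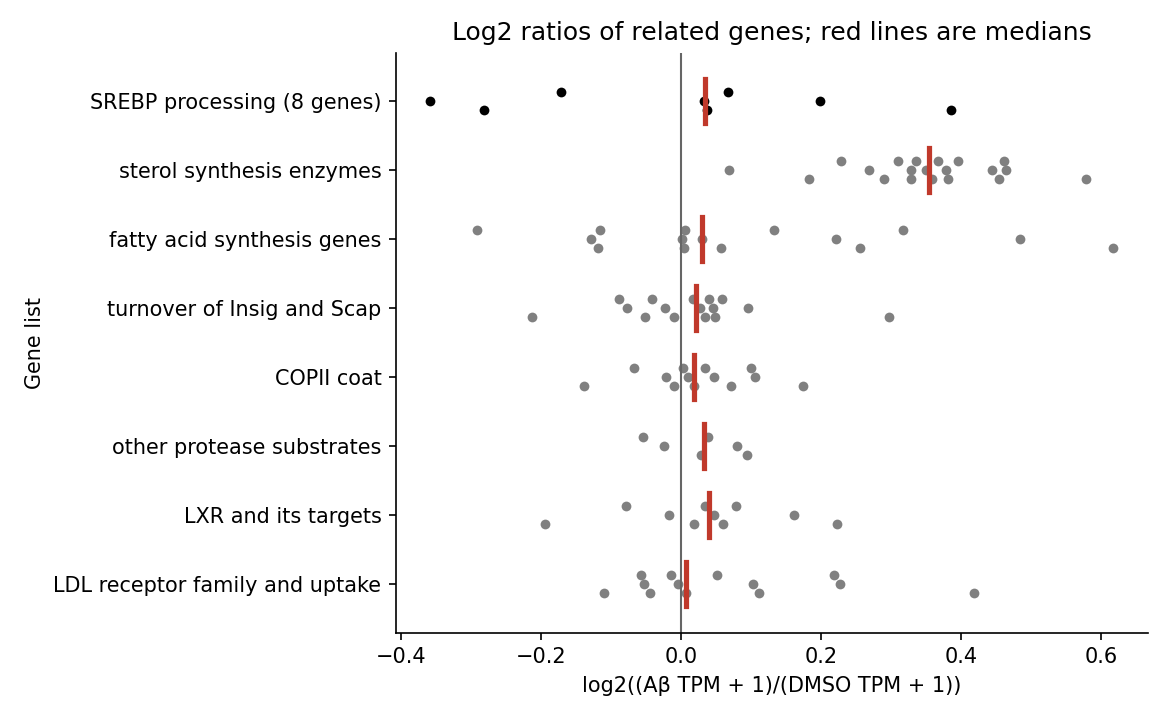
Log2((Aβ TPM + 1)/(DMSO TPM + 1)) of each gene reaching 1 TPM in at least 1 library, by list, with the 8 genes in black at the top and red lines at list medians. The sterol synthesis enzymes all lie right of 0 (median 0.35), and the other medians lie between 0.01 and 0.04.

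The authors' deposited table of gene ontology terms for genes higher with Aβ names Insig1 in 20 of its 282 terms and no other of the 8 genes. It counts 391 list genes, and its terms name 246 of the 17049 genes of the expression table. In that authors' deposited table the smallest p-value was shared by cholesterol biosynthetic process and secondary alcohol biosynthetic process, each with 17 list genes including Insig1, a fold enrichment of 11.7 and an adjusted p-value of 5.26e-11. The 246 symbols named in the authors' deposited table all had at least 1.19 times as many deposited reads with Aβ as with DMSO. Insig1 was at 1.30 on this quotient and Mbtps2, the next of the 8, at 1.12. The authors' terms were deposited with these same libraries and concern genes higher with Aβ, so they are no independent support.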

How the data were processed

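RNA was sequenced from 1 Aβ and 1 DMSO culture, grouped by the treatment label. The submitters' processing notes name Bowtie2 and the rat build Rnor_6.0; for the counting tool and the annotation, the labels and headers used here give nothing. The authors' deposited table gives estimated counts (rounded to whole numbers for the intervals), TPM and FPKM per gene, per the file headers. The deposited columns named normalized hold each read count rounded up and were treated as a score and not used. Their enrichment table, also deposited by the authors, holds fold enrichment as a ratio, p-values (raw, adjusted and q-values) and a z score for each term.

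Read ratios are in reads per total estimated reads, with Clopper-Pearson 95% intervals of the conditional binomial; odds ratios between genes have exact conditional intervals. TPM intervals scale exact Poisson intervals of the reads. Implied length is reads over FPKM and total reads. No test of a difference was run. The interval step was tried on simulated counts with counting error alone, which cannot show how it does with variation between cultures. Python 3.11.15, scipy 1.17.1 and edgeR 4.0.16 (scaling factors only) were used. Promoter windows, found for all 8 genes by gene number, and gene neighbours come from RefSeq tables of GRCr8. The members and the 7 related lists were chosen with earlier results of these data known, so the lists are no independent support. In each list the 4 measured genes with the largest absolute log2 ratio were to be named; some are not reported here.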

Additional observations from a re-analysis of the deposited data

How the results depend on the processing

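The 33 alternative values of the members' read ratios all stayed within their counting intervals. They were scaling by the median gene ratio or by edgeR TMM factors, the library total without the 10 most abundant genes, unrounded counts, and the Srebf1 and Rai1 sum, chosen after seeing the data. The scalings shifted all log2 ratios by between -0.0025 and 0.00016. Unrounded counts equal the rounded ones for the 7 genes with whole reads. Apart from the Rai1 sum, these alternatives could hardly have moved a ratio out of its interval. The 32 alternative log2 TPM ratios (pseudocounts of 0.1 and 0, CPM and FPKM) were held against a range as wide as the read interval, centred on the main log2 TPM ratio. All stayed within it, but the range is wide for Mylip, which went from -0.28 to -0.54 with no pseudocount. The number of the 8 genes with an interval above 1 was 3; it was 1 (Insig1) with 99% intervals, which are wider by construction, and 2 (Insig1 and Mbtps2) with median scaling, which shifted all log2 ratios by -0.0025. Srebf1 was the gene below 1 in each of these settings. The number of fatty acid synthesis genes lower with Aβ was 4 by TPM and 7 by CPM, and the number of LXR genes lower was 3, and 6 with no filter on low levels, which adds 3 scarce genes. The first difference lay in Me1, Acaca and Mid1ip1, which were nearly equal between the libraries. Their log2 TPM ratios were 0.0061, 0.0035 and 0.00077 and their read ratios 0.996, 0.993 and 0.996. The members with nearly equal implied lengths also had TPM quotients slightly above their read ratios. Srebf1 was at 0.776 by TPM (no pseudocount) and 0.766 by reads, and Scap at 1.03 and 1.02. Why TPM and CPM differ was not tested. No paired analysis was possible because each group has 1 library and no comparison comes from a test. Depth limits Mylip and Insig2 most.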

Other observations

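The coat that carries Scap and the SREBPs out of the endoplasmic reticulum showed little difference. Of 13 COPII genes at 1 TPM or more, 9 had a higher level with Aβ and 4 a lower one, and their median log2 TPM ratio was 0.02. By CPM, 7 were higher and 6 lower. The read interval was above 1 for 1 and below 1 for 1. The inner coat gene Sec23b was at 65.9 TPM with Aβ and 58.3 TPM with DMSO (read ratio 1.12, 1.05 to 1.21). The cargo adaptors Sec24a and Sec24d were at 1.07 (0.988 to 1.15) and 0.894 (0.795 to 1.01), and Sec16b, of the exit sites, was at 1.08 (0.827 to 1.40). The gene below 1, named after its values were seen, was the coat GTPase Sar1a at 0.948 (0.904 to 0.995).

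Other proteins that the site-1 and site-2 proteases or the site-1 protease alone cut were nearly equal at the transcript level. Of 6 at 1 TPM or more, 4 had a higher level and 2 a lower one, their median log2 TPM ratio was 0.03, and no read interval excluded 1. The stress sensor relative Atf6b was at 83.1 TPM with Aβ and 77.8 TPM with DMSO (1.06, 0.996 to 1.13). Creb3 was at 1.06 (0.964 to 1.16) and Creb3l1 at 0.95 (0.749 to 1.20). Gnptab, with reads that were not whole, was at 1.02 (0.948 to 1.10).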
